A study of Rattus norvegicus with 9 samples.

Results

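The mRNA of 8 genes of fatty acid oxidation was followed in rat liver after lethal total-body irradiation (TBI), with and without prior Hong Shan Capsule (HSC). These were the nuclear receptors Ppara and Ppard and 6 genes known as targets of these receptors, namely Cpt1a, Cpt1b, Pdk4, Ehhadh, Angptl4 and Acot1. The genes were chosen by name, and their probes were found through the RefSeq accession that the array design gives for each probe. All 8 had at least 1 probe, with 9 probes in all because Cpt1b had 2, out of 41012 probes and 13438 named genes on the array. Liver RNA of 9 male Wistar rats was labelled with Cy3 and hybridized to one-colour Agilent rat arrays, 1 rat per array. The 3 control rats were not irradiated. The 3 TBI rats received 6.5 Gy from a 60Co source at 2 Gy/min. The 3 HSC + TBI rats received HSC, a preparation of medicinal herbs, by mouth for 3 consecutive days and then the same exposure. The HSC dose is given as 30 mg/kg/day in the sample labels and as 10 g/kg/day in the design text, and it entered no calculation. Livers were taken 24 h after exposure, and the age of the rats was not given in the sources used here. No HSC group without irradiation was analysed here, so a response to HSC alone cannot be told apart from a response to HSC with irradiation.

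The peroxisome proliferator-activated receptors (PPARs) are nuclear receptors that bind fatty acids and their derivatives and, paired with a retinoid X receptor, switch on genes that burn fat. PPARα, the product of Ppara, is the main form in hepatocytes and drives the fasting response, in which the liver oxidizes fatty acids in mitochondria, peroxisomes and the endoplasmic reticulum and releases ketone bodies. PPARδ, the product of Ppard, is found in most tissues and binds overlapping target genes. Long-chain fatty acids enter mitochondria as carnitine esters, and the outer-membrane carnitine palmitoyltransferase 1 is the controlled step. The liver normally uses the Cpt1a form of this enzyme, and muscle, heart and brown fat the Cpt1b form.

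Values below are log2 signals after quantile normalization over the 9 arrays, and differences are log2 differences of group means (1 log2 unit is a 2-fold change). A gene was called when limma gave a Benjamini-Hochberg adjusted p under 0.05 over all 25369 tested probes and the change was at least 1.5-fold. Each gene was counted once, through its brightest tested probe. All 8 genes passed the filter on dim probes. The probe of Ppard passed only through the TBI group, where it was above background on 3 of 3 arrays against 2 in control and 1 in HSC + TBI. The dimmer probe of Cpt1b passed only through the TBI group as well.

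Compared with control, the liver 24 h after TBI had less Cpt1a mRNA and more Cpt1b and Pdk4 mRNA, so 3 of the 8 genes were called, 2 higher and 1 lower. Among all 9604 named genes tested, 7.79% were called in this comparison, 3.87% higher and 3.92% lower. In 6 of the 8 genes (all but Angptl4 and Acot1) the control and TBI rats did not overlap, against 29.9% of all named genes. These 6 include Ppard, which was tested only because of its level in TBI, so the count is not read as support for a difference. The median difference of the 8 genes was 0.19, against 0.0064 over all named genes. Of the genes in HSC + TBI, 1 of 8 (Cpt1b, higher) was called against control, where the share over all named genes was 3.88% (1.18% higher and 2.71% lower). In 3 of 8 (Cpt1a, Cpt1b and Ehhadh) the HSC + TBI rats did not overlap with control, against 34.5% of all named genes, so this count was close to the background. When the irradiated groups were compared with each other, 0 of 8 were called by limma, against 0.791% of all named genes. Ppara, Ppard and Pdk4, 3 of 8, had an unadjusted limma p under 0.05, against 15% of all named genes, and the same 3 did not overlap, against 21.3%. Because Ppard was tested only through its level in TBI, these counts too are not read as support for a difference. Both comparisons with control share the same 3 control rats. The median difference of the 8 genes was −0.064 for HSC + TBI minus control and −0.13 for HSC + TBI minus TBI, while that of all named genes was 0.022 in both.

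**Figure D1:**
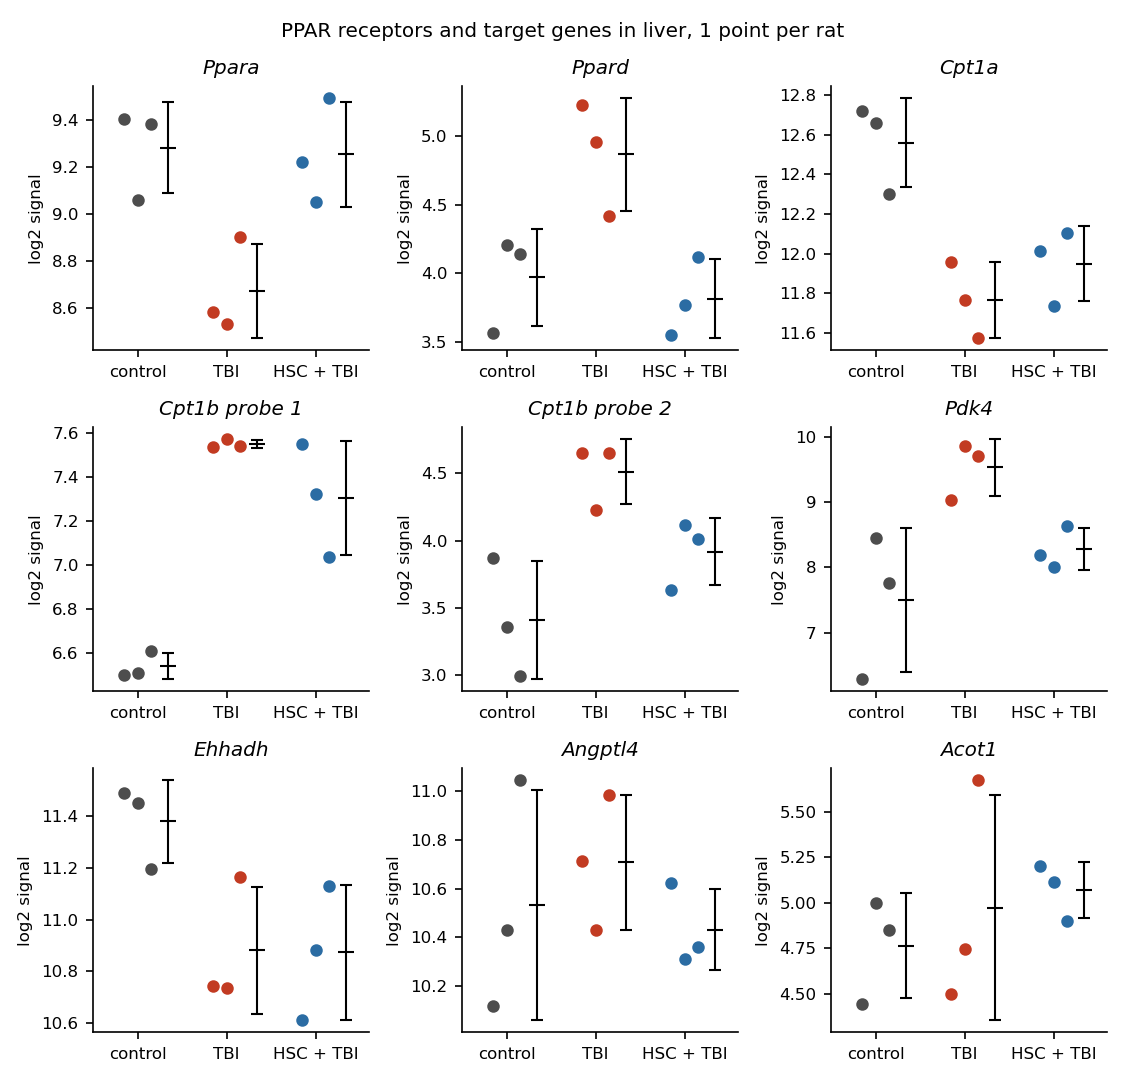
Log2 signal of the 9 probes of the 8 genes in each rat (y axis, a separate scale in each panel) for control, TBI and HSC + TBI. Each point is 1 rat, and the bar beside the points is the group mean ± SD (n = 3). The TBI points lie apart from the control points in every panel except Angptl4 and Acot1, and in the Ppara panel the HSC + TBI points overlap with the control points.

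The 3 control arrays lay on 1 slide, the 3 TBI arrays on another, and the HSC + TBI arrays on 2 further slides, so slide and group cannot be told apart. The share of probes above background was 56.6% to 59.3% on control arrays, 63.6% to 69.5% on TBI arrays and 58.7% to 60.5% on HSC + TBI arrays. Cdkn1a, the p53 target that encodes p21 and rises after irradiation, was 5.37 higher in TBI than in control and 4.88 higher in HSC + TBI, and no irradiated rat overlapped with a control rat. All 8 hepatocyte markers were above background on every array. Their summed linear signal was 941000 to 990000 in control, 727000 to 885000 in TBI and 819000 to 918000 in HSC + TBI. Among these markers the growth-hormone-dependent Cyp2c11 fell by 1.47 (adjusted p = 0.0454, limma) and the glucocorticoid-induced Tat rose by 1.53 (adjusted p = 0.0287) after TBI. The part of these shifts in the results below was not tested. In whole liver, a change in the number of cells of a type cannot be told apart from a change of RNA per cell.

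The receptor genes differed from control in opposite directions after TBI, but neither was called. Ppara had log2 signals of 9.41, 9.06 and 9.38 in the control rats, 8.58, 8.53 and 8.90 in the TBI rats, and 9.22, 9.05 and 9.50 in the HSC + TBI rats. Every TBI rat lay below every rat of the other groups, while control and HSC + TBI overlapped. The group means were 9.28 ± 0.194, 8.67 ± 0.201 and 9.26 ± 0.225 (SD, n = 3). TBI was 0.61 below control (difference −0.61, SE 0.169, or 0.654-fold), which missed the threshold with an adjusted p of 0.062 by limma. HSC + TBI differed from control by −0.03 (adjusted p = 0.949) and from TBI by 0.59 (95% interval 0.20 to 0.97, adjusted p = 0.153). Ppara passed the threshold against control when TBI 3 was left out (−0.73, adjusted p = 0.0374).

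Ppard had log2 signals of 3.57, 4.21 and 4.14 in control, 5.22, 4.95 and 4.42 in TBI, and 3.55, 3.77 and 4.12 in HSC + TBI. Every TBI rat was above every other rat, and control and HSC + TBI overlapped. These are dim signals near background, and the probe was above background on 6 of 9 arrays. The means were 3.97 ± 0.353, 4.87 ± 0.411 and 3.81 ± 0.288 (SD, n = 3). The difference of TBI from control was 0.89 (SE 0.259, adjusted p = 0.0713), that of HSC + TBI from control was −0.16 (adjusted p = 0.79), and that of HSC + TBI from TBI was −1.05 (95% interval −1.64 to −0.46, adjusted p = 0.112). The probe was tested only because of its level in TBI, the group where it was highest, so these differences are descriptions and support no call. Among the runs with 1 rat left out, the fit passed the threshold only without TBI 3, at 1.12 against control (adjusted p = 0.0304) and −1.27 between the irradiated groups (adjusted p = 0.0462), and these values carry the same limit. With the normexp background correction the difference of TBI from control shrank to 0.15.

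Of the other receptors and cofactors of the pathway, 10 were measured and 0 were called in any of the 3 comparisons by limma. At an unadjusted p under 0.05, 6 of them passed for TBI against control, 1 for HSC + TBI against control and 4 for HSC + TBI against TBI, where 26.1%, 21.9% and 15% of all named genes passed. These shares are also the background of the unadjusted counts given for the other lists. The background of the counts of calls, here and in the other lists, was 7.79%, 3.88% and 0.791% in the same order. Their median difference from control was −0.31 in TBI and 0.064 in HSC + TBI. The following were chosen after their values were seen. Ppargc1b, a coactivator of fatty acid oxidation genes, lay 0.81 below control in TBI (adjusted p = 0.072) and 0.80 below in HSC + TBI (adjusted p = 0.108), with group means of 8.23, 7.42 and 7.42 in the order control, TBI and HSC + TBI. Its relative Ppargc1a had means of 5.25, 4.57 and 5.59, and TBI overlapped with both other groups. Lpin2, of the lipin family of phosphatidate phosphatases, had a difference of −0.87 in TBI by its brighter probe (adjusted p = 0.0786), and its other probe was called at −1.09. The corepressor gene Nrip1, whose product silences such genes, had a difference of 0.53 in TBI by its brighter probe (adjusted p = 0.0507). Its other probe differed by 0.25 and was not called.

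At the mitochondrial gate, the liver form of carnitine palmitoyltransferase 1 fell after TBI and the muscle form rose. Cpt1a had log2 signals of 12.72, 12.66 and 12.30 in control, 11.96, 11.77 and 11.57 in TBI, and 12.01, 11.74 and 12.10 in HSC + TBI. Every irradiated rat, with or without HSC, was below every control rat, and the irradiated groups overlapped. The means were 12.56 ± 0.225, 11.77 ± 0.193 and 11.95 ± 0.190 (SD, n = 3). The gene was called for TBI, with a difference of −0.79 (SE 0.167, adjusted p = 0.0249), or 0.577-fold. For HSC + TBI the difference was −0.61 (SE 0.167), which missed the threshold at an adjusted p of 0.0908, and the irradiated groups differed by 0.18 (95% interval −0.20 to 0.56, adjusted p = 0.621). The call for TBI was lost when control 1, control 2 or TBI 2 was left out, with adjusted p of 0.0759, 0.0784 and 0.0666, while the difference stayed between −0.92 and −0.70.

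Cpt1b was read by 2 probes. The brighter one had log2 signals of 6.50, 6.51 and 6.61 in control, 7.54, 7.57 and 7.54 in TBI, and 7.55, 7.32 and 7.04 in HSC + TBI. The TBI rats were nearly equal, no irradiated rat reached down to a control rat, and HSC + TBI 1 was as high as the TBI rats. The means were 6.54 ± 0.0591, 7.55 ± 0.0198 and 7.30 ± 0.259 (SD, n = 3). The difference of TBI from control was 1.01 (SE 0.140, adjusted p = 0.00518), or 2.02-fold, and was called with each of the 9 rats left out in turn. HSC + TBI was also called, at 0.76 above control (SE 0.140, adjusted p = 0.0255), or 1.70-fold. That call was lost without control 1, 2 or 3 or without HSC + TBI 1 or 2, with adjusted p of 0.0588 to 0.0905 and a difference of 0.64 to 0.80. HSC + TBI and TBI differed by −0.25 (95% interval −0.57 to 0.07, adjusted p = 0.427). With the normexp correction the differences from control shrank to 0.53 in TBI and 0.37 in HSC + TBI, which is under 1.5-fold, at adjusted p of 0.00571 and 0.0325.

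The dimmer probe of Cpt1b had log2 signals of 3.87, 3.36 and 3.00 in control, 4.65, 4.23 and 4.65 in TBI, and 3.64, 4.11 and 4.01 in HSC + TBI. It was not well above background on any control array, so fold changes were taken against a substituted control level. Each control array entered with the dimmest signal that its flags called well above background, or with the probe's own signal where that was higher. Against this level the mean of TBI was 1.58-fold and that of HSC + TBI 1.05-fold, and neither ratio allows for the spread between rats. On the measured signals TBI was called (means 3.41 and 4.51, adjusted p = 0.0283, limma). HSC + TBI, above background on 2 of 3 arrays, was not called (mean 3.92, adjusted p = 0.286). It overlapped with control, as HSC + TBI 1 at 3.64 lay below control 1 at 3.87, so no minimum increase is claimed for HSC + TBI. Leaving out control 2, control 3, TBI 1 or TBI 3 took away the call for TBI, with adjusted p of 0.0566 to 0.0861. This probe was tested only because of its level in TBI, so its higher reading there is no independent support for that of the brighter probe. The probes differed on whether HSC + TBI was called. Because Cpt1b is the muscle form, markers of other tissues are given beside it. Of 8 skeletal muscle markers, 5 (Acta1, Ckm, Myh4, Myh1 and Tnnt3) were above background on no array. The other 3, Mylpf, Tnni2 and Mb, were above background on all 9 arrays. Their means were 6.31, 7.62 and 7.31 in control, 5.41, 7.31 and 7.44 in TBI, and 5.43, 7.51 and 7.53 in HSC + TBI. Of these 3, 0 were called by limma, with 0 at an unadjusted p under 0.05. The summed signal of all 8 was 389 to 609 in control, 334 to 458 in TBI and 396 to 467 in HSC + TBI. Of the 6 adipocyte markers measured, Adipoq, Lep, Retn and Ucp1 were above background on no array. The summed adipocyte signal was 1780 to 2960, 3360 to 5440 and 2290 to 2960 in the same order, and most of it came from Cfd, the complement factor made by fat cells, which was called higher in TBI at 1.14 (adjusted p = 0.0347). The only other adipocyte marker tested, the fatty acid binding protein gene Fabp4, differed from control by −0.18 in TBI (adjusted p = 0.922) and its groups overlapped. The part of the Cfd signal in the Cpt1b result was not tested.

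The other 9 genes of the carnitine shuttle and its control by malonyl-CoA held 0 calls in any comparison by limma, with 3 at an unadjusted p under 0.05 in each comparison with control and 0 between the irradiated groups. The next 3 of them are named here after their values were seen. Crat, which makes short-chain carnitine esters, had means of 5.35, 6.42 and 6.37 in control, TBI and HSC + TBI, with differences from control of 1.07 (adjusted p = 0.0532) and 1.02 (adjusted p = 0.0917). Crot, the peroxisomal counterpart for medium-chain esters, had means of 12.30, 13.43 and 13.35 and differences of 1.13 (adjusted p = 0.0757) and 1.06 (adjusted p = 0.129). Slc25a20, the carrier of acylcarnitines across the inner membrane, differed by 0.33 and 0.41 (adjusted p = 0.105 and 0.0819). Cpt2, which hands the fatty acid back to coenzyme A inside the mitochondrion, had means of 12.80, 12.66 and 12.82, and its groups overlapped.

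The pyruvate dehydrogenase kinase Pdk4 turns off the entry of glucose carbon into the citric acid cycle and is a classic PPARα target in fasting. It showed the largest difference of the 8 genes after TBI. Its log2 signals were 6.28, 8.44 and 7.76 in control, 9.04, 9.85 and 9.70 in TBI, and 8.18, 8.01 and 8.64 in HSC + TBI. Every TBI rat was above every other rat, HSC + TBI overlapped with control, and the control rats were spread widely, with control 1 the lowest of all rats. The means were 7.49 ± 1.10, 9.53 ± 0.435 and 8.28 ± 0.323 (SD, n = 3). TBI was called at 2.04 above control (SE 0.493, adjusted p = 0.0414), or 4.10-fold. HSC + TBI was 0.78 above control (adjusted p = 0.43) and 1.25 below TBI (difference −1.25, 95% interval −2.38 to −0.13, adjusted p = 0.26), and neither was called. With 1 rat left out, the difference of HSC + TBI from control ranged from 0.18 without control 1 to 1.26 without control 2, and was not called in any of the 9 runs. The TBI call was close to the threshold. Without control 1, the lowest rat, it held at a smaller difference of 1.43 (adjusted p = 0.0492), and without control 2 it was 2.51 (adjusted p = 0.026). Leaving out control 3, TBI 2, TBI 3 or any one HSC + TBI rat took it away, at adjusted p of 0.0574 to 0.111.

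The promoters of Cpt1a and Pdk4, called in opposite directions, and of Ehhadh are shown as context for the receptors, whose element is a direct repeat of AGGTCA with 1 base between. Windows of 300 bases, from 250 bases before to 50 bases after the annotated start, were taken from RefSeq on assembly GRCr8, which held 6 of the 8 genes (all but Cpt1b and Ppard). Capitals mark the stretch closest to the 13-letter element AGGTCANAGGTCA on either strand, where N is any base and 12 letters were compared.
Cpt1a, chr1:209995910-209996209, plus strand: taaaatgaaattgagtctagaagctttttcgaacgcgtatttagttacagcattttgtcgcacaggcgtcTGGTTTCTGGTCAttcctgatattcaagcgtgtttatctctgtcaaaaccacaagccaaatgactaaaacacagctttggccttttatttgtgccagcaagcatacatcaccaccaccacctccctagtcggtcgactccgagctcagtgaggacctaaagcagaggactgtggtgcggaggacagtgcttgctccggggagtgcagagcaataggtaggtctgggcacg
Pdk4, chr4:34568280-34568579, minus strand: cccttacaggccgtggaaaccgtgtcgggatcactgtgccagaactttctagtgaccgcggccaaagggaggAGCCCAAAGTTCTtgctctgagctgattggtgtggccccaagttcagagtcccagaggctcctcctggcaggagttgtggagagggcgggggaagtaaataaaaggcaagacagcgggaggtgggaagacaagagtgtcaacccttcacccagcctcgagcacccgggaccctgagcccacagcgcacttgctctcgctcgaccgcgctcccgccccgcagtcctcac
Ehhadh, chr11:92746159-92746458, plus strand: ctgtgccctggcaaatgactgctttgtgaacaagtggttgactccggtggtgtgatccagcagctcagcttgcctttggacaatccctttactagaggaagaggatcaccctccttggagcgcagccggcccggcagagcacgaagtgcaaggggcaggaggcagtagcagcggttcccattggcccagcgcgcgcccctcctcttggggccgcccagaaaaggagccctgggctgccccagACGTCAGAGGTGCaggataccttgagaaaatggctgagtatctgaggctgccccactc
The single motif AGGTCA, which is part of the full element, was in 0 of the 6 windows on either strand, while 16.2% of the 33469 windows in the table held it. The full element was in 18 windows (0.0538%) and in none of the 6. The closest stretch of Cpt1a and of Pdk4 shared 8 of 12 letters with it, as at least 80.3% of all windows did, and was the first of 3 and of 4 equally close stretches. That of Ehhadh shared 9 of 12 letters and began 8 bases before the start, and 24.9% of all windows held as close a stretch. These matches are descriptions of letters and not binding sites, and the absence of the motif in these windows concerns only these letters.

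**Figure D2:**
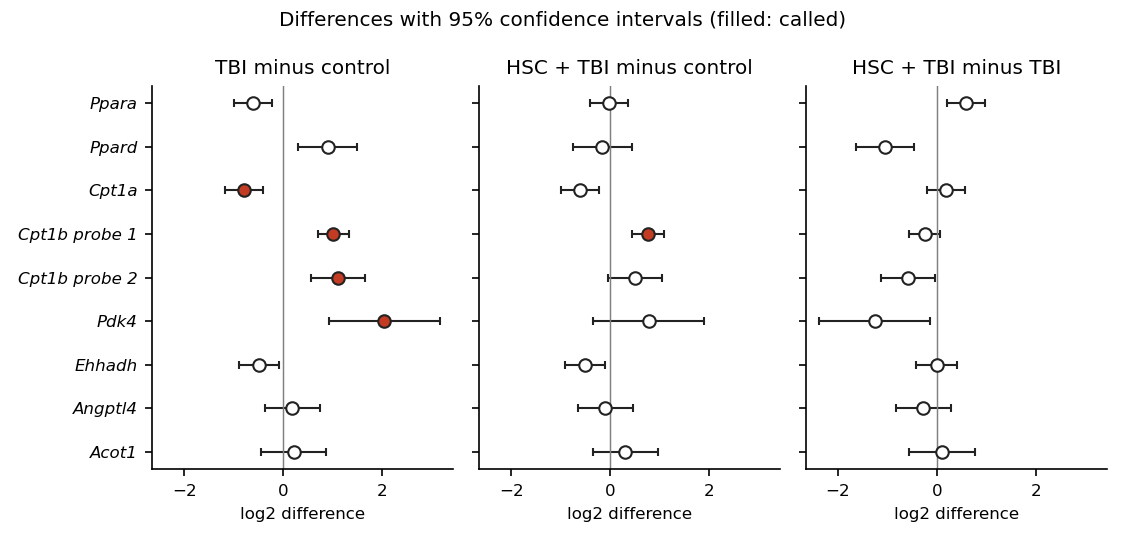
Log2 differences between group means for the 9 probes, with 95% confidence intervals from limma (x axis), in the 3 comparisons. Filled points were called. The filled points are Cpt1a, both Cpt1b probes and Pdk4 for TBI minus control and the brighter Cpt1b probe for HSC + TBI minus control, and the panel of HSC + TBI minus TBI holds none.

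The remaining genes of this set, Ehhadh, Angptl4 and Acot1, were not called in any comparison. Ehhadh encodes the peroxisomal bifunctional enzyme of β-oxidation. Its log2 signals were 11.49, 11.45 and 11.20 in control, 10.74, 10.74 and 11.16 in TBI, and 10.61, 10.88 and 11.13 in HSC + TBI. Every irradiated rat was below every control rat, TBI 3 only just, and the irradiated groups overlapped. The differences from control were −0.50 in TBI (SE 0.179, adjusted p = 0.127) and −0.51 in HSC + TBI (SE 0.179, adjusted p = 0.169), and the irradiated groups differed by −0.01 (95% interval −0.42 to 0.40).

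Angptl4 encodes a secreted inhibitor of lipoprotein lipase that rises in fasting. Its log2 signals were 10.12, 10.43 and 11.05 in control, 10.71, 10.43 and 10.99 in TBI, and 10.62, 10.31 and 10.36 in HSC + TBI, and all 3 groups overlapped. The differences from control were 0.18 in TBI (95% interval −0.38 to 0.73, adjusted p = 0.686) and −0.10 in HSC + TBI (adjusted p = 0.864). Acot1, a cytosolic thioesterase that frees fatty acids from coenzyme A, read 4.44, 5.0 and 4.85 in control, 4.50, 4.74 and 5.67 in TBI, and 5.20, 5.11 and 4.90 in HSC + TBI. TBI 3 was the highest rat and the groups overlapped. The differences were 0.21 in TBI (95% interval −0.45 to 0.87, adjusted p = 0.692) and 0.31 in HSC + TBI (adjusted p = 0.615). The Acot genes form a family of close copies, and whether the Acot1 probe also reads its relatives was not tested.

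The rest of the fatty acid oxidation pathway was read from 9 lists ordered by role, with 105 genes besides the 8. Of these, 97 had a probe and 93 were tested. After TBI, 5 of the 93 were called (5.38%, against 7.79% of all named genes), 4 of them higher (Acsl5, Cyp4a1, Cyp4a2 and Cyp4a8) and 1 lower (Cidec). In HSC + TBI, 2 of 93 (2.15%) were called against control, both lower (Dbi and Cidec), where 3.88% of all named genes were called. Of the 93, 0 differed from TBI by limma, against 0.791% of all named genes, with 9 at an unadjusted p under 0.05. The median differences of the 93 genes were −0.0039, 0.020 and 0.028 for TBI minus control, HSC + TBI minus control and HSC + TBI minus TBI. Genes of the lists with no probe found by name included Rxra, Ncor1, Med1, Ncoa1, Slc16a1, Plin2 and Plin4, so the main partner of the receptors was not measured here. Acsl6, Vldlr, Abcd2 and Ucp3 were not well above background on any array.

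The microsomal ω-oxidation list, which holds the Cyp4a fatty acid hydroxylases induced by PPARα in rat liver, had 3 of 5 genes called after TBI, all higher, and a median difference of 1.10. Among all named genes, 7.79% were called in this comparison and 3.87% were called higher. Cyp4a1 had means of 12.63 ± 0.181, 13.52 ± 0.389 and 13.06 ± 0.0586 (SD, n = 3) in control, TBI and HSC + TBI, and no irradiated rat reached down to a control rat. It was called at 0.89 in TBI (SE 0.194, adjusted p = 0.0286), and HSC + TBI lay 0.43 above control (adjusted p = 0.268) and 0.46 below TBI (difference −0.46, adjusted p = 0.289). Cyp4a2 had log2 signals of 12.26, 10.29 and 10.90 in control, 13.50, 13.51 and 12.56 in TBI, and 12.68, 13.34 and 12.71 in HSC + TBI, so control 1 stood well above its group. It was called at 2.04 in TBI (SE 0.484, adjusted p = 0.0387), and HSC + TBI was 1.76 above control (adjusted p = 0.0919). Cyp4a8 had means of 12.91 ± 0.826, 14.77 ± 0.384 and 14.40 ± 0.281 (SD, n = 3), and was called at 1.87 in TBI (adjusted p = 0.0237) with HSC + TBI at 1.5 (adjusted p = 0.0783). Cyp4a3, named here after its value was seen, differed by 1.10 in TBI (adjusted p = 0.0548) and 0.86 in HSC + TBI (adjusted p = 0.151).

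These hydroxylase genes are close copies of each other, and whether their probes read single genes was not tested. None of the 3 calls held in every run with 1 rat left out. Cyp4a1 was called in 4 of 9 such runs and not without control 1, control 3, TBI 2, TBI 3 or HSC + TBI 1 (adjusted p = 0.0501 to 0.0942). Cyp4a2 was called only without control 1 or TBI 3, and its difference ranged from 1.61 to 2.59 over the 9 runs. The call of Cyp4a8 did not hold without control 2, control 3, TBI 1 or TBI 2 (adjusted p = 0.0569 to 0.087).

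Among the genes of uptake, binding and activation, 1 of 14 tested was called after TBI and 1 of 14 in HSC + TBI. Each count was 7.14%, against 7.79% of all named genes for TBI and 3.88% for HSC + TBI. Acsl5, which activates long-chain fatty acids by joining them to coenzyme A, had log2 signals of 13.30, 13.16 and 12.90 in control, 13.76, 13.82 and 13.96 in TBI, and 13.49, 13.62 and 13.48 in HSC + TBI. The 3 groups did not overlap, with HSC + TBI between the others. Acsl5 rose by 0.73 in TBI (SE 0.132, adjusted p = 0.0149) and held that call with each rat left out in turn, while HSC + TBI was 0.41 above control (adjusted p = 0.134) and 0.31 below TBI (difference −0.31, adjusted p = 0.289). Dbi, the acyl-CoA binding protein, had means of 16.40 ± 0.168, 16.00 ± 0.0947 and 15.76 ± 0.0874 (SD, n = 3). It fell by 0.63 in HSC + TBI (adjusted p = 0.0324) and was not called in TBI (−0.40, adjusted p = 0.0859), and the irradiated groups differed by −0.23 (adjusted p = 0.397). These values are of its brighter probe, and its other probe differed from control by −0.62 in HSC + TBI and was not called. The call of Dbi held in 2 of 9 runs with a rat left out and was lost without any single control or HSC + TBI rat or without TBI 2 (adjusted p = 0.0509 to 0.123).

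The list of the fuel switch, lipid droplets and secreted targets held 1 call (6.67%) in each comparison with control among its 15 tested genes besides Pdk4 and Angptl4. The share over all named genes was 7.79% for TBI and 3.88% for HSC + TBI. The called gene was Cidec, a lipid droplet protein that promotes fat storage. Its log2 signals were 10.58, 10.43 and 10.38 in control, 9.78, 9.29 and 9.74 in TBI, and 9.85, 9.63 and 9.74 in HSC + TBI, so every irradiated rat lay below every control rat. Cidec fell by 0.86 in TBI (SE 0.154, adjusted p = 0.0139), called with each rat left out in turn, and by 0.72 in HSC + TBI (SE 0.154, adjusted p = 0.0419). The call in HSC + TBI was lost without any single control or HSC + TBI rat (adjusted p = 0.0951 to 0.143). The sister kinases of Pdk4 are given here after their values were seen. Pdk2 lay below control in every irradiated rat, by a difference of −0.58 in TBI (adjusted p = 0.0253) and −0.55 in HSC + TBI (adjusted p = 0.0488), just short of the 1.5-fold minimum in both. Pdk1 had means of 8.07, 7.63 and 8.02 in control, TBI and HSC + TBI, with a TBI difference of −0.44 (adjusted p = 0.0895). Pdk3 had dim means of 4.74, 4.19 and 3.49, with differences of −0.54 in TBI (adjusted p = 0.362) and −1.25 in HSC + TBI (adjusted p = 0.0944). The Pdk3 probe was tested only because of its level in control, so its differences are descriptions. Fgf21, a fasting hormone of the liver and a PPARα target also picked after its value was seen, had means of 8.10, 8.75 and 9.13, with differences of 0.65 in TBI (adjusted p = 0.165) and 1.03 in HSC + TBI (adjusted p = 0.0743).

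The enzymes of β-oxidation itself held no call. Over all named genes 7.79%, 3.88% and 0.791% were called in the 3 comparisons, so counts of 0 in lists this short are not read as a result. For mitochondrial β-oxidation, 0 of 15 genes were called in each comparison by limma, with 3 at an unadjusted p under 0.05 in each comparison with control and 0 between the irradiated groups, and medians of 0.018, 0.0039 and 0.054. For peroxisomal β-oxidation, 0 of 13 genes besides Ehhadh were called in any comparison, with 1, 0 and 0 at an unadjusted p under 0.05. Ketogenesis had 0 of 4 called, with 0, 1 and 0 at an unadjusted p under 0.05. The acyl-CoA thioesterases besides Acot1 had 0 of 8 called, with 3, 3 and 0 at an unadjusted p under 0.05 and a median difference from control of 0.32 in both irradiated groups.

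**Figure D3:**
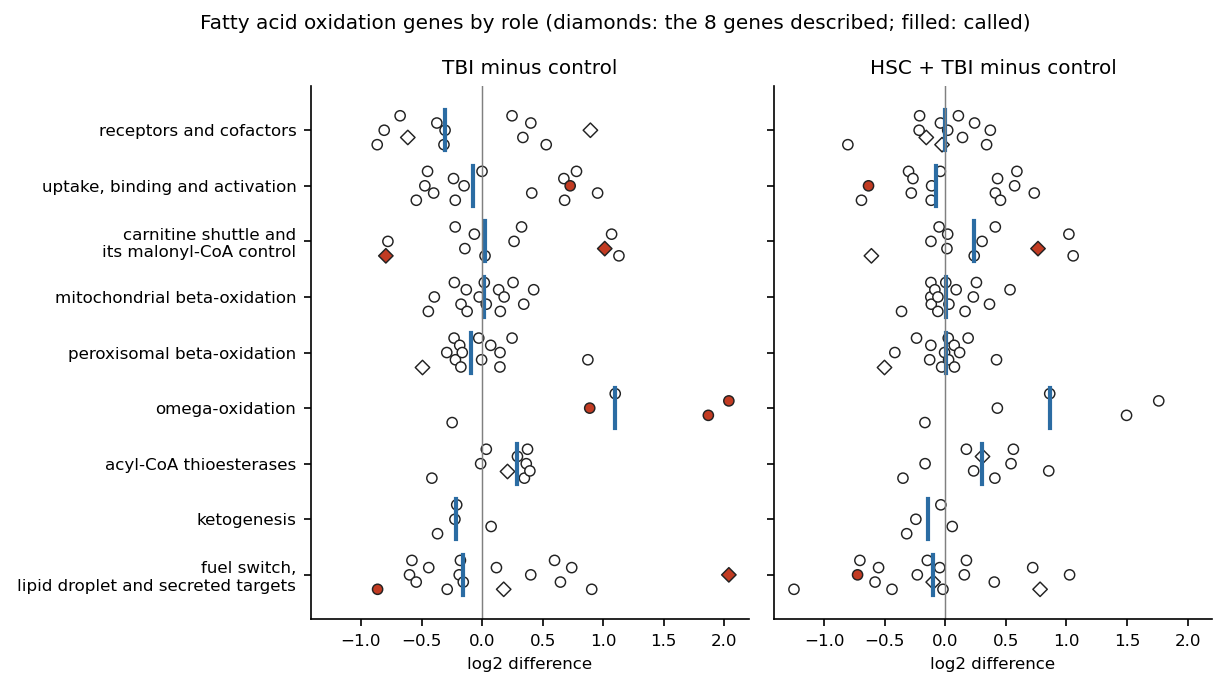
Log2 differences of the tested genes of each role (x axis) for TBI minus control and HSC + TBI minus control. Each symbol is 1 gene, diamonds are the 8 genes described, filled symbols were called, and the blue line is the median of the list. The ω-oxidation list has 3 filled symbols to the right of 0 for TBI, and the mitochondrial and peroxisomal lists have none.

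Seen rat by rat, the 8 genes did not vary as 1 block. Over the 9 arrays the log2 signals of Cpt1a and Cpt1b had a Pearson r of −0.899, those of Cpt1b and Ehhadh −0.864, those of Ppara and Ppard −0.805, and those of Ppard and Pdk4 0.738. The r between Ppara and its targets was 0.534 for Cpt1a, 0.518 for Ehhadh, −0.713 for Pdk4, −0.645 for Cpt1b, −0.161 for Angptl4 and 0.0195 for Acot1. These are descriptions over arrays that share groups and slides, so group differences enter each of them. Ppard was above background on 6 of 9 arrays and was tested only because of its level in TBI. Its values of r carry that limit and are no support for a link. Control 1 was the lowest rat for Pdk4 and the highest control for Cyp4a2 and Cyp4a8.

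**Figure D4:**
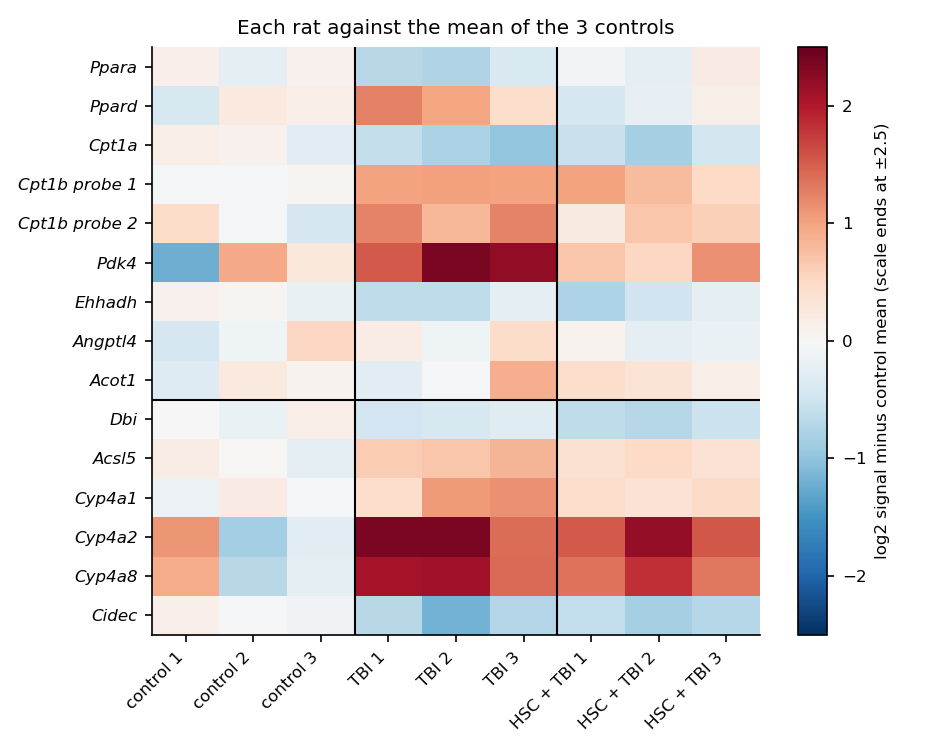
Log2 signal of each rat minus the mean of the 3 controls (colour, red higher and blue lower) for the 9 probes of the 8 genes above the line and for the called genes of the rest of the pathway below it. The columns are the 9 rats in 3 groups. The TBI columns are red for Pdk4, both Cpt1b probes, Cyp4a2 and Cyp4a8 and blue for Ppara, Cpt1a and Cidec, and the Ppara and Ppard rows are pale again in HSC + TBI.

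For each gene above background on all 9 arrays, the 2 named genes most like it in log2 signal over the 9 arrays were taken out of 8528 such genes. They were Acbd6 (r = 0.975) and Med31 (0.947) for Ppara, Adhfe1 (0.972) and Sgms2 (0.969) for Cpt1a, and Dapk1 (0.978) and Ube2g2 (0.974) for Cpt1b. Those of Pdk4 were Sult1a1 (0.963) and C4bpa (0.953), those of Ehhadh were Arl6 and Ybx3 (0.946 each), those of Angptl4 were Zfyve27 (0.944) and Strn4 (0.916), and those of Acot1 were Rcbtb1 (0.966) and Cyp27b1 (0.927). With 9 arrays and this many genes, values of this size are a description of likeness, and none of the closest genes belonged to the pathway lists. Ppard was not searched because it was not above background on all arrays.

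Markers of other liver cells are given beside Ppara, Ppard and Pdk4, whose TBI rats did not overlap with the HSC + TBI rats. None of these markers was called between the irradiated groups. All 7 macrophage and Kupffer cell markers were above background on every array and lower in HSC + TBI than in TBI, with a median difference of −1.1 and 6 of 7 at an unadjusted limma p under 0.05, and 0 were called. Their summed signal was 58700 to 88300 in control, 59700 to 113000 in TBI and 41400 to 46100 in HSC + TBI. The summed signal of lymphocyte and leukocyte markers was 807 to 1560, 445 to 1170 and 261 to 439 in the same order, with Cd3e and Cd5 among those above background on no array and Cd3g and Cd79b called lower in both irradiated groups. The probes of Cd3g and Cd79b were tested only because of their level in control, so these calls are descriptions and no support for a difference. The 4 endothelial and 3 erythroid markers measured held no call by limma in any comparison. The part of these cells in the differences of Ppara, Ppard and Pdk4 between the irradiated groups was not tested.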

How the data were processed

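Each of the 9 rats, 3 per group, gave 1 array, and the sample labels gave the groups. Per the file headers, the authors measured spot intensities with Feature Extraction (Agilent), release 10.7.3.1, which the processing notes list as 10.7. Their quantile-normalized values were deposited as log2, with a single value for a probe on an array. The processed intensity was used here as the starting point, after removal of control spots and of 84 to 115 outlier spots per array (of 43379, with 0 saturated). Signals under 1 were raised to 1 before log2, quantile normalization used limma 3.58.1 (R 4.3.3), and replicate spots were averaged. The result differed from the authors' values by a median of 0.029 to 0.032 per array.

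A probe counted as above background if over 0.5 of its spots were flagged so. Testing was limited to the 25369 of 41012 probes that met this on every array of 1 or more groups. Gene names came from RefSeq accessions in the GRCr8 gene table (16968 probes), which served for names and promoter windows only. One limma fit of the 3 group means (lmFit, eBayes) gave all differences, 95% intervals and p-values, adjusted by Benjamini-Hochberg over the tested probes. The 3 rats per group limit the precision, and the smallest two-sided exact permutation p is 0.1. The code was tested on simulated data.

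The members, the pathway and marker lists and the tests were chosen with earlier results of these data known. Genes named are the 8 members, called pathway genes (up to 5 per list), the 2 genes most like each member, Cdkn1a, and markers where needed. The text says where others were chosen after their values were seen. Alternatives included a shift to the 75th percentile, normexp with an offset of 50 on median spot and background intensities, the authors' values, no filter or a filter on all 9 arrays, all outlier spots kept, fits of the compared groups alone, the t-test named in the methods, no fold minimum, blocks for replicate number and (random) for slide, leaving out each rat, and counting a gene through any probe.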

Additional observations from a re-analysis of the deposited data

How the results depend on the processing

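Of the log2 differences of single probes of the 8 genes under all alternatives, 499 kept their direction and side of the threshold, 31 kept the direction but lost the call, 18 gained a call and 13 changed sign, all of the last among differences that were not called. With the 75th percentile shift the sign changed for Ppara in HSC + TBI against control (0.012), and for Ehhadh (0.059) and Acot1 (−0.048) in HSC + TBI against TBI. With 1 rat left out, sign changes fell within ranges of −0.029 to 0.44 (Angptl4) and −0.14 to 0.44 (Acot1) for TBI against control, −0.15 to 0.076 (Ppara) and −0.31 to 0.16 (Angptl4) for HSC + TBI against control, and −0.14 to 0.13 (Ehhadh) and −0.14 to 0.45 (Acot1) for HSC + TBI against TBI.

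The counts called among the 8 genes with 1 rat left out were 1 to 4 for TBI against control, 0 to 1 for HSC + TBI against control and 0 to 1 for HSC + TBI against TBI. Those among the other pathway genes were 2 to 9, 0 to 5 and 0 to 2 in the same order. The share called over all probes also varied between these runs, from 3.5% to 9.43%, 1.25% to 4.05% and 0.11% to 3.74%. With only the compared groups in the fit, TBI against control called 1 of the 8 genes and 1 pathway gene, and Cpt1a (adjusted p = 0.0563) and Pdk4 (0.0915) were lost. There 4.63% of all probes were called. The methods' t-test at unadjusted p called 5, 2 and 3 of the 8 genes and 11, 12 and 1 of 93 pathway genes in the 3 comparisons, against 10.1%, 8.12% and 5.39% of all probes. At adjusted p it called 1, 0 and 0 of the 8 genes, Cpt1b alone, and 0 pathway genes in each comparison. The slide as a random block called 5 of the 8 genes and 21 pathway genes for TBI against control, 13 pathway genes for HSC + TBI against control, and 3 and 4 for HSC + TBI against TBI. There the correlation within slides was estimated as −0.327, and all probes were called at 17.8%, 10.1% and 8.89%. Each slide held arrays of 1 group only, so this block cannot separate slide from group, and its higher counts are no support for a difference. For HSC + TBI against control, 1 pathway gene was called with the 75th percentile shift, under normexp or when dim probes were kept, and 4 with no minimum fold change. The shares over all probes were 3.76%, 1.93%, 1.46% and 3.42% in the same order. With dim probes kept, Pdk4 was lost for TBI (adjusted p = 0.0702). The cause of these changes was not tested, except that fewer arrays, more probes or the negative correlation within slides enter the fit by construction.

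Deviations of same-numbered rats from their group means correlated at −0.143 to 0.191 over probes, against −0.12 to 0.144 for differently numbered rats of different groups. Between control and TBI alone, same-numbered rats were at 0.0974 to 0.191 and differently numbered rats at −0.12 to 0.0172. Whether the replicate numbers pair the rats was not tested, and the main fit did not pair them. With the replicate number as a block, 4 of the 8 genes were called for TBI against control, with Ppara added (adjusted p = 0.0372), and 0 for HSC + TBI against control, with Cpt1b lost (adjusted p = 0.0518). All probes were called at 6.21% and 3.07% in these comparisons. Ppard and the dimmer Cpt1b probe were near background, where normexp shrank the differences.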
